A study of Mus musculus with 18 samples.

Results

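Cd274 and Pdcd1lg2 encode programmed death ligand 1 (PD-L1) and programmed death ligand 2 (PD-L2), the ligands of the inhibitory receptor PD-1. The study asked about PD-L1 induction by IL-27 in T cells, and the pair was chosen by name. They are 2 of the 18193 genes that had a probe set for that symbol alone on the Affymetrix mouse array. Each had 1 such probe set (1419714_at for Cd274 and 1450290_at for Pdcd1lg2), and both passed the filter on low values, Pdcd1lg2 through the WT arrays with IL-27 and the STAT3-deficient arrays. RNA came from naive CD4 T cells of C57BL/6J mice, sorted from spleen and lymph nodes as CD44-, CD62L+ and CD25- cells. Wild type (WT) and STAT3-deficient cells were each cultured over 3 hours under 3 conditions: unstimulated medium, IL-6 (interleukin 6) at 20 ng/ml and IL-27 (interleukin 27) at 20 ng/ml. Each of the 6 groups had 3 arrays, which the series calls biological triplicates. Stat3 was removed with Cre driven by the Cd4 promoter, which acts in developing T cells, so that most cells outside the T lineage keep the gene.

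PD-L1 and PD-L2 are cell surface proteins of the B7 family. When they bind PD-1 on a T cell, the receptor recruits phosphatases that dampen signals from the antigen receptor. PD-L1 is made by many cell types and rises with interferons, through the transcription factor IRF1, whereas PD-L2 is known mainly from dendritic cells, macrophages and some B cells. IL-6 and IL-27 share the receptor chain gp130, encoded by Il6st, and both activate STAT3.

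The starts of both genes are shown because the reports of Cd274 regulation centre on binding sites of interferon regulatory factors there. The lines below give the 250 bases before the start that the RefSeq promoter table gives for each gene, on GRCm38.p6, 5′ to 3′ on the strand of the gene. For Cd274 that start is at 29367438, inside the span of the gene in the RefSeq gene table, which begins at 29362107. Capitals mark matches to the IRF-type repeat GAAANNGAA on either strand, which reads TTCNNTTTC on the opposite one.
Cd274, chr19:29367188-29367437, plus strand: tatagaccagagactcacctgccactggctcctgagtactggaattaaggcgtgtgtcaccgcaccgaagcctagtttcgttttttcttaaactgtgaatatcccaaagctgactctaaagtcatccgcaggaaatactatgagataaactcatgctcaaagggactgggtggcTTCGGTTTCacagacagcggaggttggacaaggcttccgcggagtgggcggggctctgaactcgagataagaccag
Pdcd1lg2, chr19:29410669-29410918, plus strand: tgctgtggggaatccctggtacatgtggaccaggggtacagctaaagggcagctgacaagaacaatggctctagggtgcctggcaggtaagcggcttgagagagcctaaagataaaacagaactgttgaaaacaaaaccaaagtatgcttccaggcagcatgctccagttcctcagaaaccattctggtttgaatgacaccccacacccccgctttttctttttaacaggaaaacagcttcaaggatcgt
Cd274 held 1 match, from 76 to 68 bases before its start, and Pdcd1lg2 held none. Neither window, which also reaches 50 bases past the start, held the STAT-type motif GAS, TTCNNNGAA. Of the 32851 promoter windows of 300 bases counted, 8.56% held the IRF-type repeat and 8.3% held GAS. Here and in the shares of genes with an entry below, 1 chromosome was left out of the count. The Cd274 window had 15 CpG dinucleotides and the Pdcd1lg2 window 3, against a median of 7 over the windows counted. A match says only that these letters are present.

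The array medians, as deposited, lay between 104.4 and 126.8 units in WT and between 131.5 and 190.4 units in STAT3-deficient cells, and all tests use quantile-normalised values. Stat3 had 4 probe sets. On the brightest, 1460700_at, the WT arrays in medium read 2361.4 to 3101.4 units and the STAT3-deficient ones 1109.7 to 1264.7 units. A further probe set, 1426587_a_at, was likewise lower in STAT3-deficient cells in medium (1021.2 to 1108.5 against 1833.4 to 2384.5 units), while 1424272_at was higher (382.3 to 568.7 against 202.8 to 223.7 units) and 1459961_a_at overlapped. Which part of Stat3 each of them reads was not analysed here. Of the 11 T cell markers, 8 were on the array under a single symbol, and all 8 lay above the array median on all 18 arrays. Their level moved with the cytokines: in WT cells 6 of 8 were called lower with IL-6 and 5 with IL-27, against 4.65% and 2% of all genes. In STAT3-deficient cells 0 were called lower with IL-6 (2 of 8 changed at an unadjusted p under 0.05 by limma) and 4 with IL-27. Of all genes 0.159% and 1.7% were called lower there, so that the 0 says little about these markers. The IL-6 interaction was called and positive for 2 of the 8 markers, Cd28 and Il7r, against 1.83% of all genes. Their part in the results on other genes was not tested.

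PD-L1 mRNA rose strongly with IL-27 in both genotypes, little with IL-6 in WT cells, and strongly with IL-6 once STAT3 was missing. In WT cells in medium Cd274 read 332.4, 246.2 and 210 units. With IL-6 the WT arrays read 404.2, 476.8 and 383.7 units, and with IL-27 they read 6590.8, 6196 and 6581 units. The IL-6 arrays lay just above those in medium, and the IL-27 arrays far above both, with no overlap. After normalisation 10.6% of all genes tested lay wholly above medium with IL-6 in WT cells, 8.88% with IL-27, and 9.28% lay wholly above IL-6 with IL-27. STAT3-deficient cells read 342.1, 457.1 and 433 units in medium. With IL-6 they read 3986.4, 2645.5 and 2783.7 units, and with IL-27 9130, 10459.8 and 7080.8 units. Here all 3 groups stood apart, and the IL-6 arrays were high where the WT ones had been low. The same shares of all genes in these cells were 5.34%, 8.11% and 4.57%.

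**Figure D1:**
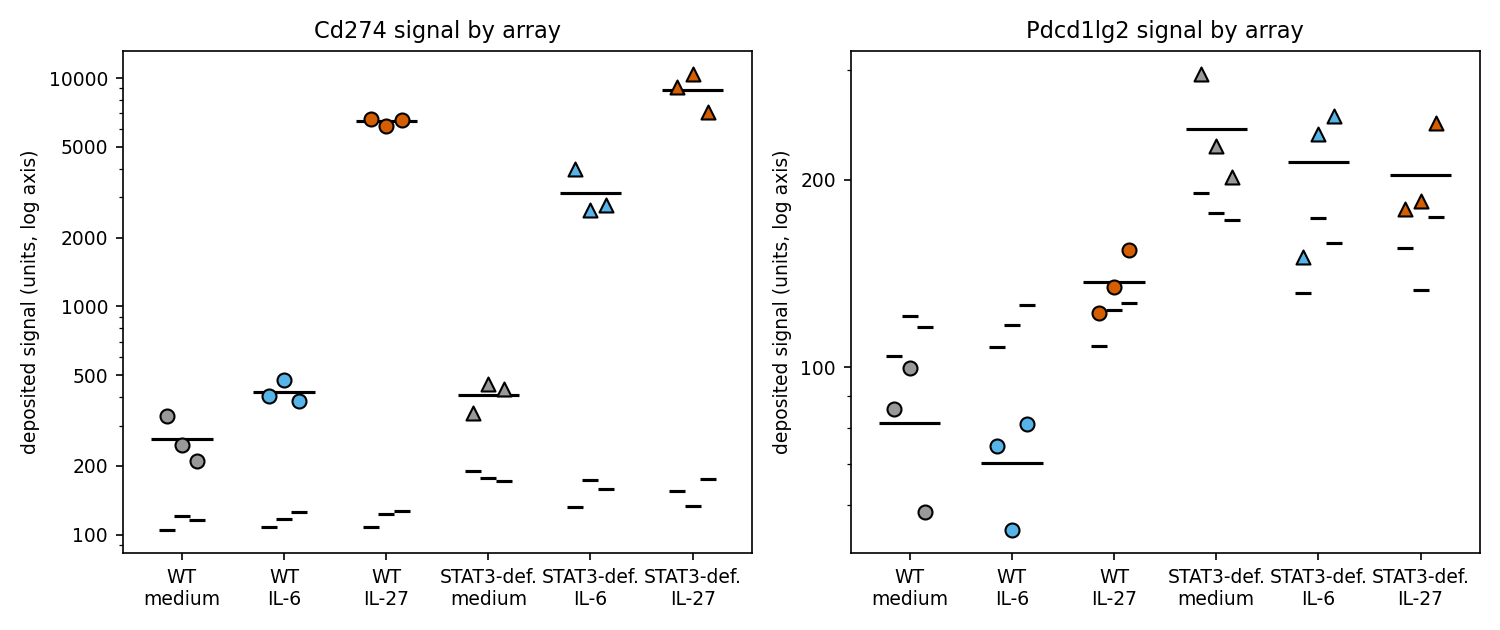
Deposited signal (units, log axis) of Cd274 and Pdcd1lg2 on each of the 18 arrays, with circles for WT and triangles for STAT3-deficient (STAT3-def.) cells, a long bar for the mean of the 3 arrays of a group and a short dash for the median of each array. Cd274 is at 6196 units or more on every IL-27 array, and Pdcd1lg2 stays below the array median on all WT arrays in medium and with IL-6.

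The group means of Cd274 were 263 ± 62.9 units in WT medium, 422 ± 48.9 with IL-6 and 6456 ± 225 with IL-27 (SD, n = 3). In STAT3-deficient cells they were 411 ± 60.7, 3139 ± 738 and 8890 ± 1702 units (SD, n = 3). The rank of Cd274 among all probe sets of an array moved from a median percentile of 64.9 in WT medium to 97.7 with IL-27, and from 71.9 to 98.7 in STAT3-deficient cells. The order from low to high was WT medium, STAT3-deficient medium, WT with IL-6, STAT3-deficient with IL-6, WT with IL-27 and STAT3-deficient with IL-27. STAT3-deficient medium did not differ from either neighbour by the test (adjusted p 0.179 against WT medium and 0.24 against WT with IL-6). The next step, STAT3-deficient with IL-6 above WT with IL-6, was 2.75 on the log2 scale (adjusted p 2.75e-09). WT with IL-27 lay above STAT3-deficient with IL-6 by 0.93 (STAT3-deficient minus WT -0.93, adjusted p 0.00158). P-values come from limma and measure the spread between these samples.

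IL-27 raised Cd274 in WT cells by 4.28 ± 0.18 on the log2 scale (SE, n = 3 per group), a 19.5-fold change (adjusted p 2.39e-12). All log2 changes and folds are on values to which 32 units were added, which shrinks changes of weak genes. Its rise ranked 6 from the highest among the 11971 genes tested, of which 4.71% were called, meaning an adjusted p under 0.05. IL-27 against IL-6 in WT cells gave 3.68, a 12.8-fold difference (adjusted p 7.51e-11), the highest of all genes tested in a comparison where 3.14% were called. STAT3-deficient cells showed an IL-27 response of 4.53, or 23.1-fold (adjusted p 9.83e-13), where 4.98% of genes were called. The IL-27 responses of the genotypes differed by 0.25 ± 0.25 (95% interval -0.27 to 0.77, adjusted p 0.801), a comparison in which 0.0167% of genes were called. That interval leaves room for a difference in either direction.

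The response to IL-6 was 0.60 ± 0.18 in WT cells (1.52-fold, 95% interval 0.24 to 0.97, adjusted p 0.0367), where 8.32% of genes were called and its rise ranked 584 of 11971. This call was lost without WT medium array 2 (0.57, adjusted p 0.124) or 3 (0.48, 0.159) and without WT IL-6 array 1 (0.62, 0.0796), 2 (0.52, 0.163) or 3 (0.67, 0.0548). Under median centring of the arrays it was 0.61 with an adjusted p of 0.182. STAT3-deficient cells responded to IL-6 by 3.03 ± 0.18, or 8.17-fold (adjusted p 6.87e-10), which ranked 11, with 1.85% of genes called. The difference between the genotypes, tested as an interaction, was 2.43 ± 0.25, or 5.38-fold (95% interval 1.91 to 2.95, adjusted p 7.67e-06), which ranked 2 from the highest among all genes, with 3.08% called. It kept its call under all 26 alternatives, from 2.09 to 2.55. Put on the scale of the signal, the IL-6 rise was 2.56% of the IL-27 rise in WT cells (1.95% to 3.45% over single IL-6 arrays) and 32.2% in STAT3-deficient cells (26.4% to 42.2%). IL-27 still gave the higher level in STAT3-deficient cells, 2.83-fold over IL-6 (adjusted p 0.000143), in a comparison with 0.393% of genes called.

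Between genotypes, Cd274 was 6.73-fold higher in STAT3-deficient than in WT cells with IL-6 (2.75 on the log2 scale, adjusted p 2.75e-09, 23.6% of genes called). In medium the difference was 0.32 (95% interval -0.043 to 0.69, adjusted p 0.179), where 26.6% of genes were called. Its size there depended on the scaling, with 0.60 and an adjusted p of 0.0123 as deposited against 0.058 and 0.856 under median centring, and on the STAT3-deficient arrays numbered 1, without which it was 0.50 (adjusted p 0.0396). These scalings also moved the median of all genes, from 0.028 to 0.14 and -0.40, and relative to that median Cd274 stood at 0.30 after quantile normalisation and 0.46 in both others. With IL-27 the STAT3-deficient cells were 1.48-fold higher (0.57, adjusted p 0.0328, 16.2% of genes called). That last call was lost without WT IL-27 array 1 (0.57, adjusted p 0.0791), 2 (0.55, 0.0927) or 3 (0.59, 0.0656), without STAT3-deficient IL-27 array 1 (0.54, 0.0903) or 2 (0.46, 0.128), as deposited (0.44, 0.0772) and under median centring (0.15, 0.704).

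PD-L2 mRNA behaved differently. Pdcd1lg2 read 85.8, 99.7 and 58.5 units in WT medium, 74.8, 54.7 and 81.1 units with IL-6, and 122.4, 134.6 and 154.4 units with IL-27. All 6 arrays in medium and with IL-6 lay below their array's median, and all 3 with IL-27 lay above it and above the rest, as 8.88% of all genes did against medium and 9.28% against IL-6. In STAT3-deficient cells it read 296.5, 226.8 and 202.5 units in medium, 150.6, 236.9 and 253.9 units with IL-6, and 179.4, 185.2 and 247.1 units with IL-27. The 3 STAT3-deficient groups overlapped one another, and all 9 arrays were above their median.

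The means of Pdcd1lg2 were 81.3 ± 21.0, 70.2 ± 13.8 and 137 ± 16.2 units in WT cells in medium, with IL-6 and with IL-27 (SD, n = 3). STAT3-deficient cells gave 242 ± 48.8, 214 ± 55.4 and 204 ± 37.5 units (SD, n = 3). Whether so weak a signal of this probe set is mRNA was not tested.

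No cytokine response of Pdcd1lg2 passed the test. IL-27 gave 0.53 ± 0.22 in WT cells (1.44-fold, 95% interval 0.076 to 0.98, adjusted p 0.233) and -0.029 in STAT3-deficient cells (-0.48 to 0.42, adjusted p 0.977). IL-6 gave -0.19 in WT cells (adjusted p 0.746) and 0.014 in STAT3-deficient cells (adjusted p 0.995). IL-27 against IL-6 gave 0.72 in WT cells (adjusted p 0.0917) and -0.043 in STAT3-deficient cells (adjusted p 1). The genotypes' responses differed by 0.21 for IL-6 (adjusted p 0.864) and -0.56 for IL-27 (95% interval -1.20 to 0.083, adjusted p 0.689). A p that misses the threshold does not show that the gene did not change, and the intervals give the changes that these arrays leave possible.

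Pdcd1lg2 was higher in STAT3-deficient than in WT cells in medium, by 0.76 ± 0.22 or 1.70-fold (adjusted p 0.0151), and with IL-6, by 0.97 or 1.96-fold (adjusted p 0.00309), but not by the test with IL-27 (0.21, adjusted p 0.553). Of all genes, 26.6%, 23.6% and 16.2% were called in these comparisons. The differences of Pdcd1lg2 in medium and with IL-6 ranked 925 and 426 from the highest among 11971 genes. The call in medium was lost without WT medium array 3 (0.60, adjusted p 0.0655), without STAT3-deficient medium array 1 (0.65, 0.0722) and without all STAT3-deficient arrays numbered 1 (0.65, 0.075), and in a fit of only the arrays compared (0.76, 0.0503). Without the filter on low values, 16 genes typical of other tissues, such as Alb of the liver, changed between the genotypes in medium by -0.997 to 1.08 (median 0.014), a range that holds the change of Pdcd1lg2, and with IL-6 by -1.05 to 1.61. In WT cells Pdcd1lg2 lay above all 16 for IL-27 against medium (0.528, highest of the 16 at 0.51) and against IL-6 (0.719, highest 0.446), both uncalled. In every other comparison it lay within their range. Markers of other cells also differed between the genotypes. With IL-27, where Pdcd1lg2 was not called, the median change of the 10 B cell markers tested was 1.6. Over the 11 of 12 B cell markers on the array, the summed signal was 1010 to 1487 units on the WT arrays and 3206 to 6829 units on the STAT3-deficient arrays, with no overlap. In medium, 9 of the 10 B cell markers tested were higher in STAT3-deficient cells, against 13.8% of all genes. Among them were Cd79b of the B cell receptor (2.46, adjusted p 8e-04), H2-Aa of MHC class II (3.14, 0.000252) and Ms4a1, which encodes CD20 (1.04, 0.000977). Of 5 monocyte and macrophage markers tested in medium, Lyz2 was higher (1.97, adjusted p 0.000257) and Cd68 lower (-0.74, 0.0139), and the summed signal of the 9 markers of these cells was 650.2 to 992.2 units in WT and 1210 to 1893 units in STAT3-deficient cells. Of 8 dendritic cell markers the sum was 312.9 to 901.2 units in WT and 723.4 to 1244 units in STAT3-deficient cells. These sums are of deposited signal, not adjusted for the higher array medians of STAT3-deficient cells. The 16 genes typical of other tissues summed to 877.6 to 1344 units in WT and 1041 to 2064 units in STAT3-deficient cells. Mean normalised log2 values in WT and STAT3-deficient medium were 6.646 and 6.659 for these 16, 6.836 and 7.158 for the macrophage list, and 6.442 and 6.835 for the dendritic list. The defining B cell marker Cd79b lay between 6 and 55.2 units on the WT arrays and between 150.3 and 454.9 units on the STAT3-deficient arrays.

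With the mean B cell marker value of each array as a covariate, the genotype difference of Pdcd1lg2 was 1.15 in medium (adjusted p 0.171) and 1.34 with IL-6 (0.115). Neither was called, though both were larger, and the difference of Cd274 with IL-27 was 0.30 (0.709). This covariate largely follows genotype (mean 6.806 in WT medium and 8.5 in STAT3-deficient medium). The fit therefore cannot separate B cell content from genotype well. Genes called between genotypes in medium fell from 3190 to 639 with it. Between medium and either cytokine, limma called 0 of the 10 B cell markers in each genotype (0 also at an unadjusted p under 0.05). Over all genes 8.32% and 4.71% were called with IL-6 and IL-27 in WT cells, and 1.85% and 4.98% in STAT3-deficient cells. At these shares, 0 of 10 called says little, and the counts concern only the level of the markers. Whether the cells that carry them raised Cd274 with IL-6 was not tested. As the B cell marker sums differed between the genotypes without overlap, the IL-6 interaction of Cd274 is not separated from cell content. In bulk RNA, fewer cells of a type and less RNA per cell cannot be told apart, and the part of B cells and macrophages in the genotype differences was not tested beyond these values.

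**Figure D2:**
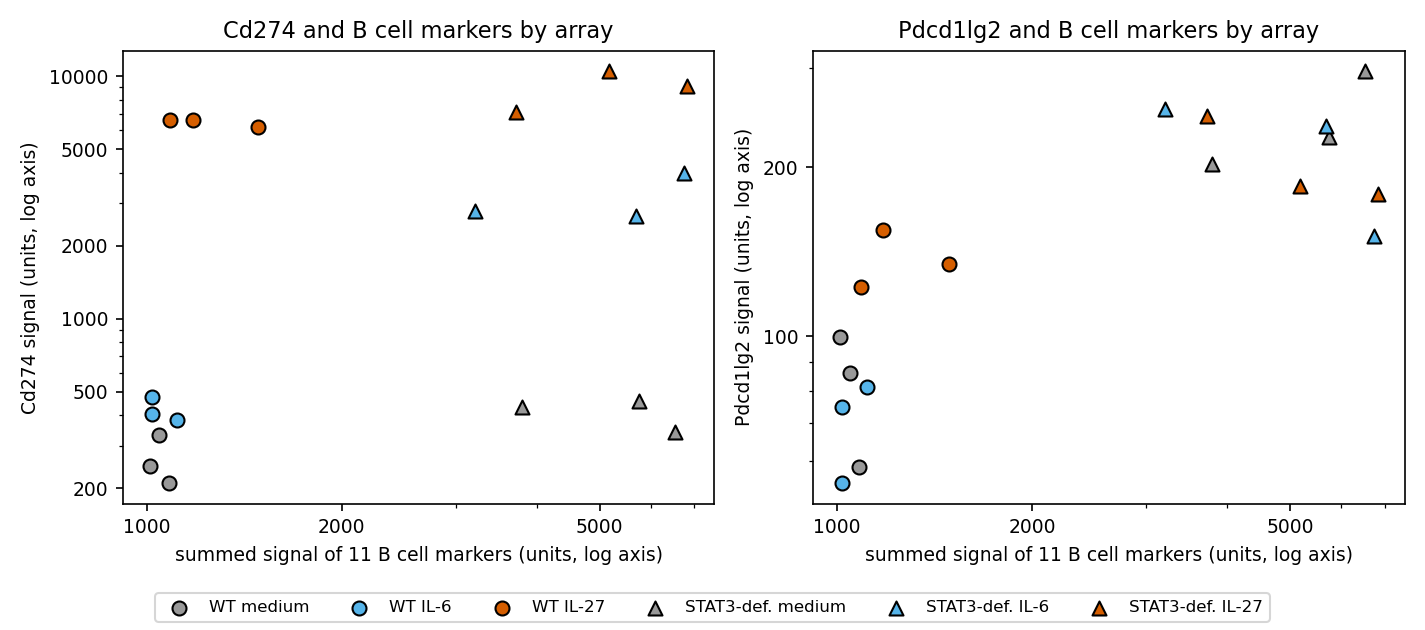
Signal of Cd274 and of Pdcd1lg2 (units, log axis) against the summed signal of 11 B cell markers (units, log axis), 1 point per array, circles for WT and triangles for STAT3-deficient cells, grey for medium, blue for IL-6 and orange for IL-27. All 9 STAT3-deficient arrays lie at 3206 units or more, right of all WT arrays, and Cd274 runs from 210 to 6590.8 units on the WT arrays and from 342.1 to 10459.8 units on the STAT3-deficient arrays.

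Side by side, the ligand genes had r = 0.524 with each other over the 18 arrays, which is given as a description. The plot of changes shows Cd274 called in 9 of 11 comparisons and Pdcd1lg2 in 2. The share of all genes called ran from 0.0167% to 26.6% over the 11 comparisons. It was 26.6% and 23.6% in the 2 where Pdcd1lg2 was called.

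**Figure D3:**
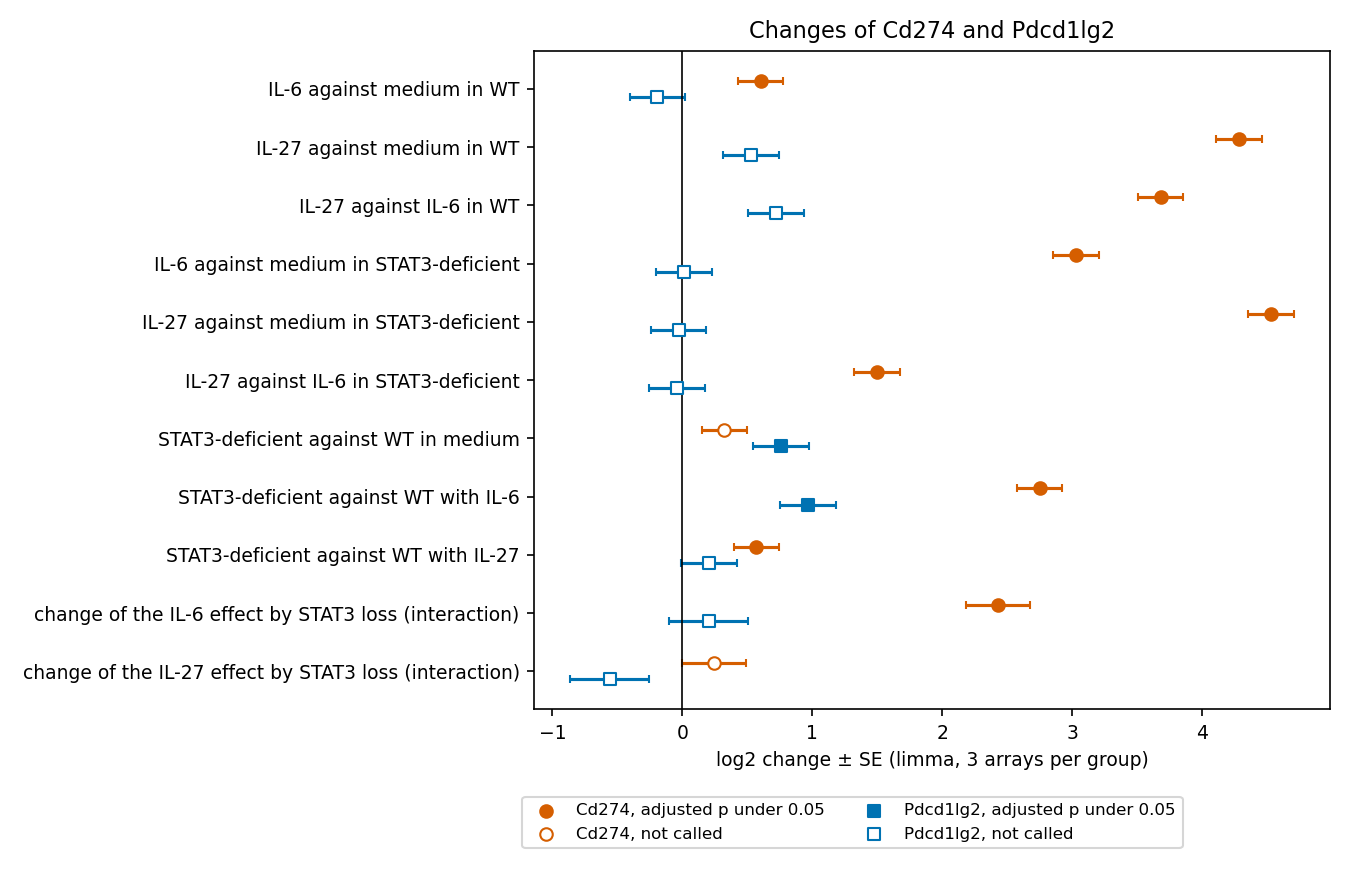
Log2 change ± SE of Cd274 (orange circles) and Pdcd1lg2 (blue squares) in the 11 comparisons, filled where the adjusted p is under 0.05. Cd274 is filled except for the genotype comparison in medium and the IL-27 interaction, and Pdcd1lg2 is filled in the genotype comparisons in medium and with IL-6 only.

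The rest of the PD-1 axis was measured for 7 of 7 genes: the receptor Pdcd1, the other partners Cd80 and Rgmb, the PD-L1 stabilisers Cmtm6 and Cmtm4, and the phosphatases Ptpn11 and Ptpn6. With IL-6, limma called 0 of the 7 in either genotype (1 in each at an unadjusted p under 0.05). With IL-27 the only one called was Cmtm6, which keeps PD-L1 at the cell surface. Over all genes 8.32% and 1.85% were called with IL-6 in WT and STAT3-deficient cells, and 4.71% and 4.98% with IL-27. At these shares, 0 or 1 of 7 says little about the axis. Cmtm6 rose by 0.39 in WT (adjusted p 0.033) and by 0.55 in STAT3-deficient cells (adjusted p 0.00216). Its WT call was lost without WT medium array 1 (0.38, adjusted p 0.105) or 2 (0.36, 0.14), without WT IL-27 array 2 (0.41, 0.0791) or 3 (0.30, 0.188), under median centring (0.34, 0.411) and with the mean of its probe sets (0.52, 0.261). The WT call was also lost without a variance trend (0.39, adjusted p 0.0775) and on the compared arrays alone (0.39, 0.056). The STAT3-deficient call of Cmtm6 was lost with the mean of its probe sets (0.14, adjusted p 0.856). Pdcd1 read 122.4 to 190.2 units in WT medium and 65 to 133.4 units with IL-27, a change of -0.67 that was not called (adjusted p 0.271). The median change of the 7 genes with IL-27 was -0.14 in WT cells, against -0.041 over all genes.

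Of the wider B7 family and its receptors, 13 of 19 genes were tested. With IL-6 4 of them were called in WT cells (2 higher, 2 lower), against 8.32% of all genes, and 2 in STAT3-deficient cells (2 higher), against 1.85%. With IL-27 the counts were 3 and 5, against 4.71% and 4.98%. The IL-6 response differed between genotypes for Lgals9, which encodes galectin-9, and Cd28, both with the sign of Cd274. Lgals9 read 1249.6 to 1572.1 units in WT medium and 1279.6 to 1339.2 units with IL-6, overlapping, but 1286.7 to 1601.9 units in STAT3-deficient medium and 2212.1 to 2780.9 units with IL-6, not overlapping. Its changes were -0.051 and 0.81, with an interaction of 0.86 (adjusted p 0.00815), and it rose with IL-27 by 0.75 and 1.36. Cd86, the other B7 ligand with calls, rose in STAT3-deficient cells by 1.84 with IL-6 (adjusted p 0.0264) and 2.12 with IL-27 (0.00438), and was not called in WT cells (0.30 and 0.82). Its IL-6 call was lost without STAT3-deficient medium array 1 (1.17, adjusted p 0.13) and without IL-6 array 2 (1.83, 0.0828) or 3 (1.66, 0.145), and as deposited (1.67, 0.0641). It was also lost with an added constant of 1 (2.52, 0.0581), without a variance trend (1.84, 0.0647) and on the compared arrays alone (1.84, 0.273). Without all STAT3-deficient arrays numbered 1 it was lost too (1.37, 0.0528). The IL-27 call of Cd86 was lost on the compared arrays alone (2.12, 0.0701). Cd28, the costimulatory receptor, fell by 1.07 in WT cells given IL-6, and gave -0.25 without a call in STAT3-deficient cells (interaction 0.82, adjusted p 0.00502). Icos, a further costimulatory receptor, rose by 1.09 in WT cells given IL-6.

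Among 16 signalling genes of the gp130 pathway, 9 were called with IL-6 in WT cells (6 higher, 3 lower; 8.32% of all genes) and 4 in STAT3-deficient cells (4 higher; 1.85%). With IL-27 the counts were 7 and 5 (4.71% and 4.98% of all genes). Socs3, the feedback inhibitor of gp130 signalling, read 460.2 to 583.6 units in WT medium and 10060.6 to 12023.7 units with IL-6, but 433.9 to 475.8 and 597.8 to 941.3 units in STAT3-deficient cells. Its IL-6 change was 4.18 in WT and 0.77 in STAT3-deficient cells, an interaction of -3.41 (adjusted p 1.36e-08) and so opposite in sign to that of Cd274. Socs1, an inhibitor of cytokine receptor signalling, rose by 1.96 and 1.90 on IL-6 in WT and STAT3-deficient cells, and by 3.28 and 3.74 on IL-27. Stat2, a transcription factor of interferon signalling, rose by 1.06 and 2.08 on IL-6 and by 2.11 and 2.37 on IL-27. Its interaction for IL-6 was 1.02 (adjusted p 0.0241). That call was lost as deposited (0.69, 0.187), without WT medium array 1 (0.80, 0.0617), WT IL-6 array 2 (0.97, 0.0713) or 3 (0.95, 0.0786), and without STAT3-deficient medium array 1 (1.00, 0.0532) or 3 (0.92, 0.0648) or IL-6 array 2 (0.99, 0.0515). The Stat2 interaction also lost its call under median centring (0.91, adjusted p 0.164) and on the compared arrays alone (1.02, 0.0729). Without all STAT3-deficient arrays numbered 1 it was lost too (1.00, 0.107). Jak1 fell by 0.72 with IL-6 in WT cells and was not called in STAT3-deficient cells (-0.11).

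Reported regulators of Cd274 were tested for 10 of 14 genes. IRF1 is known to bind the Cd274 promoter. Irf1 read 2988.9 to 3294.9 units in WT medium, 6196.8 to 6912.9 units with IL-6 and 21895.9 to 24072.1 units with IL-27. The WT groups did not overlap. It rose by 1.04 and 2.77 in WT cells and by 1.83 and 2.67 in STAT3-deficient cells, and its IL-6 response differed between genotypes by 0.79 (adjusted p 0.00136). Irf9, a partner of STAT2, rose by 1.40, 2.01, 1.65 and 1.63 in the same order, and Irf2 by 0.74, 1.00, 0.70 and 1.12, with no call on their IL-6 interactions (adjusted p 0.466 and 0.963). Irf2's rise with IL-6 in STAT3-deficient cells lost its call without medium array 3 (0.55, adjusted p 0.0743) or IL-6 array 1 (0.64, 0.0585). It was also lost on the compared arrays alone (0.70, 0.113). Bcl6, a transcriptional repressor, rose by 1.79 with IL-6 in WT cells but gave 0.15 in STAT3-deficient cells, an interaction of -1.64 (adjusted p 0.000202). Over the 44 genes of the lists on the PD-1 axis, B7 family, signalling and regulators together, 19 were called for IL-6 and 15 for IL-27 in WT cells (8.32% and 4.71% of all genes), and 9 and 15 in STAT3-deficient cells (1.85% and 4.98%). Many of these genes are known targets of the cytokines used.

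Of the interferons and cytokines that could act on Cd274 in the culture, 7 of 8 were on the array and 2 passed the filter, Ifna1 and Il6, and limma called 0 of the 2 in each comparison of a cytokine with medium (0 also at an unadjusted p under 0.05). Ifng, the classical inducer of PD-L1, lay above the array median on 0 arrays.

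The genes most like Cd274 were taken by the correlation of their log2 values with it over the 18 arrays, and by the root mean square difference of the 6 group means, each from its own WT medium mean. By correlation they were Gbp8 (r = 0.986), Irf1 (0.982), Gdap10 (0.977), Irgm2 (0.976), Tapbpl (0.975), Irgm1 (0.972), Ifit1bl1 (0.969) and Wars (0.968). The arrays share their library preparation and normalisation, and no p is given. By the difference of means the nearest were Gbp8 (0.33), Irgm1 (0.59), Gbp7 (0.73), Cxcl10 (0.80), Igtp (0.82), Irgm2 (0.83), Ifit1 (0.91) and Socs1 (0.92). Gbp8, of the interferon-inducible guanylate-binding proteins, changed by 1.11 in WT and 2.85 in STAT3-deficient cells on IL-6, and by 3.99 and 3.86 on IL-27. Tapbpl, an editor of peptides on MHC class I, gave 0.17 (not called) and 1.16 with IL-6, and 1.42 and 1.52 with IL-27. Gbp, Irgm and Ifit genes belong to families of similar sequence, and whether a probe set also reads a relative was not tested.

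**Figure D4:**
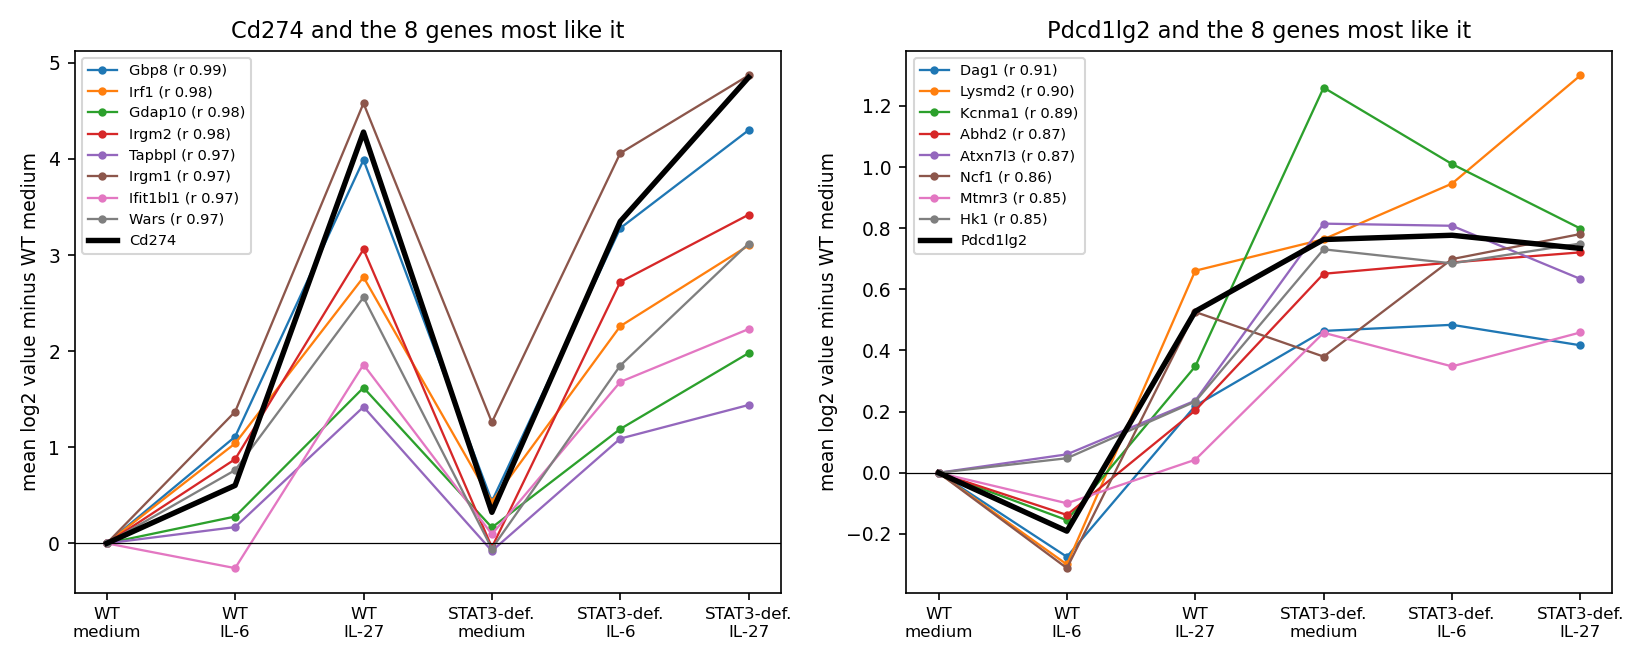
Mean log2 value of each group minus that of WT medium for Cd274 and Pdcd1lg2 (black) and the 8 genes with the highest correlation with each over the 18 arrays (coloured, with r). The r values run from 0.968 to 0.986 for the genes like Cd274 and from 0.848 to 0.906 for those like Pdcd1lg2.

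The promoters of these genes are set beside that of Cd274 because they move with it. Of the 8 genes by difference of means, 7 had a promoter entry and all 7 held an IRF-type repeat in at least 1 window. Of 5 with an entry among the 8 by correlation 3 held one, against 9.76% of all genes with an entry. GAS was held by 3 of the 7 and 2 of the 5, against 9.55% of all genes with an entry. Irgm2 and Igtp have nearly the same bases around their matches, so that the 7 promoters are not all independent. The lines give 10 bases on either side of a match, on the strand of the gene, with the match in capitals, from RefSeq on GRCm38.p6.
Cd274, chr19:29367352-29367380, plus strand: actgggtggcTTCGGTTTCacagacagcg
Irgm1, chr11:48871432-48871460, minus strand: cctgtttcaaGAAATAGAAaccgaaactg
Gbp7, chr3:142530274-142530302, plus strand: tgtgtgcagtTTCAGTTTCagttctccat
Igtp, chr11:58199512-58199540, plus strand: tctaggaactGAAACTGAAagctgttcgg
Ifit1, chr19:34640770-34640798, plus strand: aactgcaggcTTCAGTTTCactttccagt
Socs1, chr16:10785601-10785629, minus strand: agacttgccgGAAAGAGAAaccgaaagcg
Irf1, chr11:53769914-53769942, plus strand: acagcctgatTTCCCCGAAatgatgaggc
The last line shows the GAS match of Irf1, whose window held no IRF-type repeat. Gbp7, Irgm2 and Igtp held GAS as well as the repeat. Overlapping matches occur in the Irgm1, Ifit1 and Socs1 windows.

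Genes most like Pdcd1lg2 by correlation were Dag1 (r = 0.906), Lysmd2 (0.899), Kcnma1 (0.886), Abhd2 (0.872), Atxn7l3 (0.866), Ncf1 (0.856), Mtmr3 (0.854) and Hk1 (0.848). By difference of means the nearest were Plcl2 (0.087), Igsf1 (0.11) and Ldb2 (0.11). Dag1, which encodes dystroglycan, gave -0.28 and 0.22 with IL-6 and IL-27 in WT cells, with no call.

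Cd274 and Pdcd1lg2 are neighbours on chromosome 19 of GRCm38.p6, at chr19:29362107-29388095 and chr19:29410919-29472927, with 22823 bases and 0 protein-coding genes between them in the RefSeq table. Of the 16 nearest protein-coding genes, 8 on each side, 11 were tested. Plgrkt, a plasminogen receptor whose annotated span overlaps that of Cd274, rose in all 4 cytokine comparisons. Its span ends at 29367292, inside the printed Cd274 window and before the start used there. It read 1821.2 to 2179.8 units in WT medium, 2664.2 to 3275.8 with IL-6 and 5727.9 to 6412.2 with IL-27, with no overlap, and its changes were 0.57 and 1.55 in WT and 0.83 and 1.29 in STAT3-deficient cells (adjusted p 0.000613, 2.35e-09, 2.21e-05 and 3.18e-08). Whether its probe set also reads Cd274 transcripts was not tested.

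Insl6, of the insulin-like peptide family and 3 places from Cd274, rose with IL-27 5.02-fold over medium in WT (adjusted p 2e-04) and 6.06-fold over medium in STAT3-deficient cells (4.57e-05). It read 107.8 to 160 units in WT medium, 139.2 to 205.4 with IL-6 and 829.6 to 928.8 with IL-27. STAT3-deficient cells read 122.5 to 297.5, 299.6 to 902.4 and 610.7 to 1278.8 units. With IL-6 Insl6 gave 0.37 in WT (adjusted p 0.683) and 1.62 in STAT3-deficient cells (0.013), and the difference was not called (1.26, adjusted p 0.245). That 1.62 lost its call without STAT3-deficient medium array 1 (1.43, 0.0939) or 3 (1.43, 0.0809) or IL-6 array 1 (1.21, 0.0961), and without all STAT3-deficient arrays numbered 1 (1.02, 0.314). The same Insl6 call was also lost with array weights (1.12, adjusted p 0.103) and on the compared arrays alone (1.62, 0.197). Jak2, 4 places away and a kinase of cytokine receptors, was not called with either cytokine (from -0.19 to 0.30), and none of the other 8 neighbours was.

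**Figure D5:**
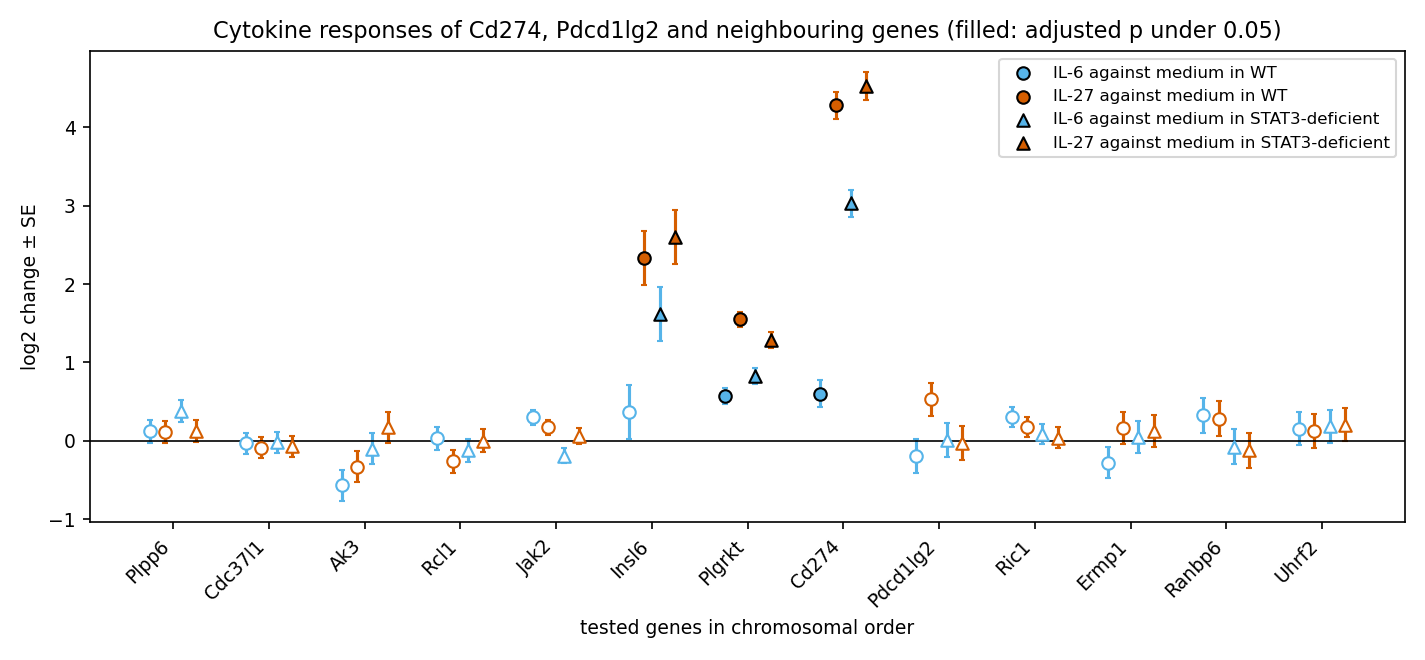
Log2 change ± SE of Cd274, Pdcd1lg2 and the 11 tested neighbours in chromosomal order, for IL-6 (blue) and IL-27 (orange) against medium in WT (circles) and STAT3-deficient cells (triangles), filled where the adjusted p is under 0.05. Filled points stand at Insl6, Plgrkt and Cd274 and at none of the other genes, Pdcd1lg2 included.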

How the data were processed

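RNA of 18 arrays was read from the deposited table, whose intensity values are linear probe set signals made by the authors with GCOS, per the submitters' processing notes (version, algorithm and build not given in the sources used here). Trimmed means of 496.4 to 498.6 units per array show a common scaling. After removing 64 control probe sets from 45101, 34945 had 1 gene symbol, 932 several and 9160 none. Signals plus 32 were log2-transformed and quantile-normalised, because array medians differed 1.82-fold (limit 1.5). Probe sets above their array median on at least 3 arrays were kept (26860), and the brightest per gene used (11971 genes). limma 3.58.1 (R 4.3.3) fitted 6 group means to all arrays (12 residual and 6.25 prior degrees of freedom, variance trend), with two-sided p-values adjusted by Benjamini-Hochberg over all genes, and was tested on simulated data. With so few arrays per group the precision is limited. The genes and lists were chosen with earlier results of these data known. Up to 6 genes per list were to be named, by calls and then size, besides the ligands, the 8 genes most like each and 8 neighbours on either side. Cd79b, H2-Aa, Ms4a1 and Lyz2 were named after their values were seen.

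The values were refitted without quantile normalisation, with arrays centred on their medians, with other constants and filters, with averaged probe sets, with array weights, without a variance trend, on the compared arrays alone, with blocks by sample number, and leaving out each array. The B cell covariate and leaving out the STAT3-deficient arrays numbered 1 were added after seeing the data. Pairing by number was not shown under the rule that every pair's correlation exceed 0.1: deviations of same-numbered arrays of a genotype correlated from -0.148 to 0.364 (median 0.14) in 18 pairs, 11 above 0.1, against a median of -0.0615 for other numbers. B cell marker sums did follow the number in STAT3-deficient cells (6532, 6746 and 6829 units on the arrays numbered 1, 3790, 3206 and 3716 on those numbered 3).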

Additional observations from a re-analysis of the deposited data

Results flagged for a closer look

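For 18 of the 65 genes named or listed with the ligands, the IL-6 effect differed between WT and STAT3-deficient cells by the interaction term, and for 0 of them did the IL-27 effect by limma (8 at an unadjusted p under 0.05). Over all genes 3.08% were called for IL-6 and 0.0167% for IL-27, so that the 0 says little about these genes. Irf1 and the 8 interferon-inducible genes given next were named because their values over the same arrays resemble those of Cd274, so that the count is a description and their shared sign is no support. Cd274 had the largest positive difference, 2.43 on the log2 scale. The interferon-inducible genes gave Irgm2 1.89, Ifit1bl1 1.84, Gbp8 1.74, Igtp 1.52, Irgm1 1.43, Wars 1.14, Gbp7 1.11 and Tapbpl 0.996. Smaller positive differences were those of Stat2 (1.02), Lgals9 (0.859), Cd28 (0.82), Irf1 (0.793) and Jak1 (0.615). The sign was negative for Socs3 (-3.41), Bcl6 (-1.64), Hif1a (-1.03) and Stat3 (-0.873), which responded more to IL-6 in WT cells. The differences of Stat2, Stat3, Jak1, Hif1a, Tapbpl and Wars lost their calls under at least 1 alternative.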

How the results depend on the processing

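The 22 comparisons of the ligand genes were each refitted under the alternatives, and 409 of 447 refits kept direction and call. The stricter filter, above the median on all 18 arrays, left no value for Pdcd1lg2. As deposited, Pdcd1lg2 gave -0.169 for IL-6 in STAT3-deficient cells and -0.028 for the IL-6 interaction, both reversed and uncalled, Cd274 gave -0.156 for the IL-27 interaction, was called between genotypes in medium (0.598) and lost its call with IL-27 (0.442). Median centring lost the calls of Cd274 for IL-6 in WT (0.606) and between genotypes with IL-27 (0.148), and gave pathway counts of 9 for IL-27 in WT (15), 11 between genotypes with IL-27 (19) and 6 for the IL-6 interaction (10). Without the variance trend Cd274 lost its calls for IL-6 in WT (0.603, adjusted p 0.0685) and between genotypes with IL-27 (0.570, 0.0548), and IL-27 against IL-6 in WT for Pdcd1lg2 was called at 0.719, as with array weights at 0.728, which also gave 1 pathway gene for the IL-27 interaction. A fit of only the arrays compared lost the calls of Cd274 with IL-6 in WT (0.603, adjusted p 0.0548) and of Pdcd1lg2 between genotypes in medium (0.763, 0.0503), and gave 2 pathway genes for IL-27 against IL-6 in STAT3-deficient cells. The replicate block raised pathway counts from 10 to 17 for IL-27 against IL-6 in WT and for the IL-6 interaction, and 9 of 18 arrays correlated best with their own number. It changed no call of the ligand genes.

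Of the alternatives added later, the B cell covariate largely follows genotype. It left the genotype differences of Pdcd1lg2 in medium and with IL-6 (1.15 and 1.34) and of Cd274 with IL-27 (0.295) without a call. Pathway counts between genotypes were then 8, 12 and 7 in medium, with IL-6 and with IL-27. Without the STAT3-deficient arrays numbered 1, Pdcd1lg2 gave 0.173 for IL-27 in those cells and lost its call between genotypes in medium (0.646), Cd274 was called there (0.501), and 2 pathway genes were called for IL-27 against IL-6. Leaving out single arrays, Cd274 ranged from 0.482 to 0.758 for IL-6 in WT and from 0.463 to 0.706 between genotypes with IL-27. Pdcd1lg2 ranged from 0.604 to 0.848 between genotypes in medium, from -0.101 to 0.137 for IL-6, from -0.114 to 0.0879 for IL-27 and from -0.166 to 0.0726 for IL-27 against IL-6 in STAT3-deficient cells, and the pathway count between genotypes with IL-27 from 10 to 18. The next ranges are over the alternatives other than leaving out single arrays. Numbers of called genes ranged from 347 to 931 (564) for IL-27 in WT, 205 to 588 (376) for IL-27 against IL-6 in WT, 127 to 301 (221) and 349 to 874 (596) for IL-6 and IL-27 in STAT3-deficient cells, 13 to 74 (47) for IL-27 against IL-6 there, 639 to 5910 (3190), 731 to 3670 (2826) and 395 to 2565 (1945) between genotypes, 286 to 635 (369) for the IL-6 interaction and 1 to 13 (2) for the IL-27 interaction. The causes were not tested. Of 118 called cytokine responses and interactions of other named genes, 91 were kept under every alternative run and 0 reversed.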
